A study of Caenorhabditis elegans with 5 samples.

Results

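The proteasome subunit genes of Caenorhabditis elegans were taken as every gene whose WormBase name begins with pas-, pbs-, rpt- or rpn- followed by a number. The rule found 33 genes among 45461 gene identifiers. Of these, 14 encode the core particle, with 7 alpha-ring genes (pas-) and 7 beta-ring genes (pbs-). The other 19 encode the regulatory particle, with 6 ATPase genes (rpt-) and 13 non-ATPase genes (rpn-). The lid subunit dss-1 does not carry one of these names and is described with the partner genes.

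The proteasome degrades proteins that have been tagged with ubiquitin. Its core particle is a barrel of stacked rings in which the alpha rings form the gate and the beta rings hold the proteolytic sites. The regulatory particle caps the barrel, where rpn- subunits bind and remove ubiquitin and the rpt- ATPases unfold the substrate and feed it into the core. In C. elegans, animals without a germline have been described as having raised proteasome activity, and the lid subunit rpn-6.1 has been linked to it.

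RNA sequencing was done on 5 libraries of whole animals kept at 20 °C, with 1 library for each condition. The young adult library came from animals fed bacteria with the empty vector L4440 and collected on day 1 of adulthood, and the control library came from animals on L4440 on day 3. The third library, gld-1 RNAi, held day 3 animals fed bacteria that produce double-stranded RNA against gld-1, a translational repressor needed for oocytes to form, whose loss leaves germ cells dividing. The fed and fasted libraries both came from gld-1 RNAi animals on day 4, which had been moved on day 2 for 48 h to plates with L4440 bacteria or to plates with no bacteria. Each library pooled about 3000 animals from 2 experiments, so the spread between animals and between experiments cannot be measured. The labels differ on when gld-1 RNAi began, at the first larval stage or after day 1 of adulthood, and the sources used here do not name the strain.

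The libraries held between 13803289 and 27598482 reads in genes. Ribosomal RNA took 3.53% of the reads of the young adult library and 25.7% to 28.1% of the other 4. The targeted gene, gld-1, had a normalised read count of 24395 in control animals and 2482 after gld-1 RNAi (log2 fold -3.30). Set on 1 scale, gld-1 stood at 17593 in young adults, 20340 in the control, 1994 under gld-1 RNAi, 3061 in fed and 1592 in fasted animals. The target was therefore low in the 3 libraries labelled gld-1 RNAi and high in the 2 kept on L4440.

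The authors deposited 5 tables, each comparing a pair of libraries, and 4 of these contain the gld-1 RNAi library. The table of control against gld-1 RNAi and that of fed against fasted share no library. A log2 fold here is the log2 of the second normalised read count plus 1 over the first plus 1. Intervals are 95% Clopper-Pearson intervals from the read counts and cover counting error only. With 1 library per group there is no test between conditions, and a gene is counted as lower or higher at a 1.5-fold difference. In the authors' deposited table of each comparison, the adjusted p-value was 1 for all 33 genes.

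All 33 subunit genes were well measured. Their counts ranged from 213 to 11654 reads per library, and all passed the minimum mean of 50 normalised reads in every table. The subunit genes together took 0.787% of the reads outside ribosomal RNA in young adults (interval 0.783% to 0.792%) and 0.959% in the control (0.955% to 0.963%). They took 0.739% under gld-1 RNAi (0.736% to 0.743%), 0.725% in fed gld-1 RNAi animals (0.721% to 0.729%) and 0.784% in fasted gld-1 RNAi animals (0.779% to 0.790%). The day 3 control thus held the highest share and fed gld-1 RNAi animals the lowest, while the intervals of young adult and fasted animals overlapped.

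**Figure D1:**
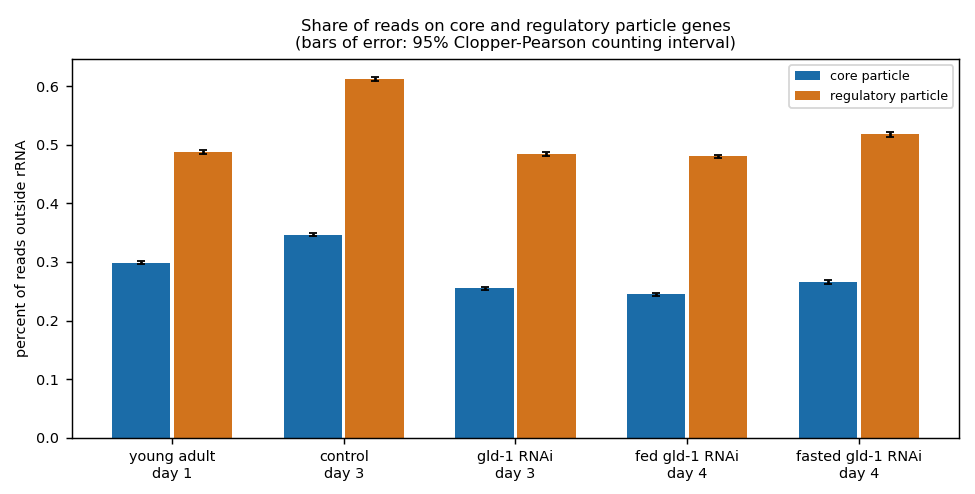
Reads of the 14 core and 19 regulatory particle genes as a percentage of the reads outside ribosomal RNA (vertical axis) in each of the 5 libraries (horizontal axis), with 95% counting intervals. The control library stands highest for both particles, at 0.347% for the core and 0.612% for the regulatory particle.

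Both particles contributed to that order, but not in the same proportion. Core genes took 0.299% in young adults, 0.347% in the control, 0.255% under gld-1 RNAi, 0.245% in fed and 0.266% in fasted animals. Regulatory particle genes took 0.488%, 0.612%, 0.484%, 0.480% and 0.518% in the same order. For the core, all 3 gld-1 RNAi libraries lay below young adults. For the regulatory particle, the fasted library lay above young adults and the intervals of young adults and gld-1 RNAi animals overlapped.

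Levels of different genes were compared per kilobase of exon, with the 5 libraries on 1 scale. The place of young adults on it depends on the scaling, since with equal totals the median subunit gene was lower in the control than in young adults. The median core gene had 4040 normalised reads per kb in young adults, 5047 in the control, 3090 under gld-1 RNAi, 3002 in fed and 3201 in fasted animals. The median regulatory particle gene had 2793, 3338, 2450, 2564 and 2659 in the same order. Core transcripts were thus more abundant per kilobase than regulatory particle transcripts in each library, by a ratio of medians of 1.45 in young adults and 1.51 in the control, against 1.26, 1.17 and 1.20 under gld-1 RNAi, in fed and in fasted animals. These ratios do not depend on how libraries are scaled to each other. Whether the difference between L4440 and gld-1 RNAi libraries exceeds replicate spread cannot be known from 1 library each.

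**Figure D2:**
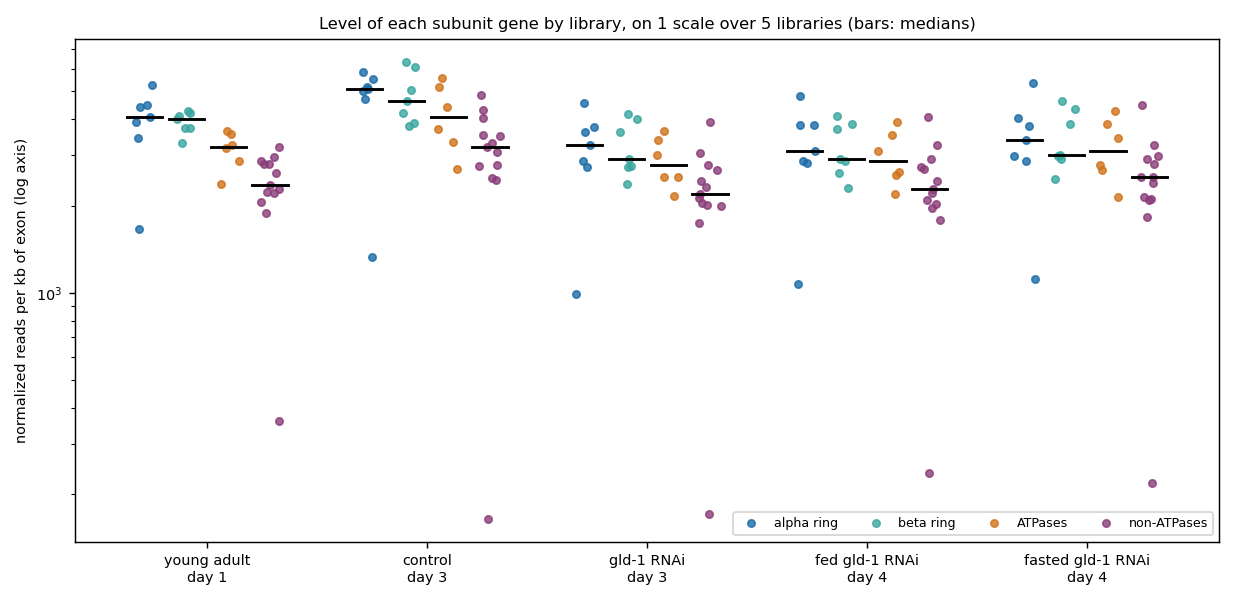
Level of each of the 33 subunit genes (points) in normalised reads per kb of exon, on a log axis, by library and coloured by the 4 kinds of subunit, with bars at the medians. The lowest point in every library is rpn-6.2, at 164 to 358, and the lowest core gene is pas-1, at 990 to 1662.

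Among the alpha-ring genes, pas-3 was the most abundant in all 5 libraries. It had 5255 normalised reads per kb in young adults, 5825 in the control, 4557 under gld-1 RNAi, 4827 in fed and 5336 in fasted animals. The alpha-ring gene pas-1 was the lowest core gene throughout, at 1662, 1329, 990, 1073 and 1115 in the same order. All other core genes lay between these genes in every library except the control, where pbs-1 (6084) and pbs-4 (6308) exceeded pas-3. The beta-ring gene pbs-5, the homologue of the chymotrypsin-like subunit of other species, had 4098, 5067, 3625, 3699 and 3852 normalised reads per kb, close to the median core gene in young adults and the control.

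In the regulatory particle, the ATPase gene rpt-1 was the most abundant per kilobase in young adults (3632) and the control (5550). The deubiquitinase gene rpn-11, whose product cuts ubiquitin from substrates at the entry of the core, led in the other 3 libraries. Its levels per kb were 2808 in young adults, 4875 in the control, 3921 under gld-1 RNAi, 4072 in fed and 4491 in fasted animals, so that young adults stood below all 4 older libraries. The lowest gene was rpn-6.2, at 358, 164, 171, 238 and 219. Its paralogue rpn-6.1, a lid subunit, had 1888, 2457, 1998, 2106 and 2107, and on this scale was lowest in the young adult library, where rpn-6.2 was highest. How reads shared by these paralogues were counted is not known, so both values are uncertain.

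The order of the 33 genes by level per kb was much the same between libraries of the same stage. Spearman's rho over the 33 genes was 0.98 between fed and fasted, 0.93 between control and gld-1 RNAi, 0.89 between young adult and control and 0.77 between young adult and gld-1 RNAi. These values are descriptions, since genes of 1 library share its depth and its tissues.

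The comparison of control with gld-1 RNAi on day 3 sets L4440 against gld-1 RNAi bacteria in adults of the same age. Nearly every subunit gene was lower under gld-1 RNAi. The median log2 fold of the 33 genes was -0.49, a level 71.0% of the control, and 32 of the 33 lay below 0, where 57% of the 9791 genes measured did, and 63.7% of those with a mean of at least 1000 normalised reads. The median of all these genes was -0.10. The interquartile range of the subunit genes was 0.22, against 0.81 for all genes and 0.62 for those at the higher minimum, whose median was -0.16. Relative to the median of all genes, 31 subunit genes were lower. Rescaling shifts all folds of a table by nearly the same amount, so this count could hardly change with the scaling.

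**Figure D3:**
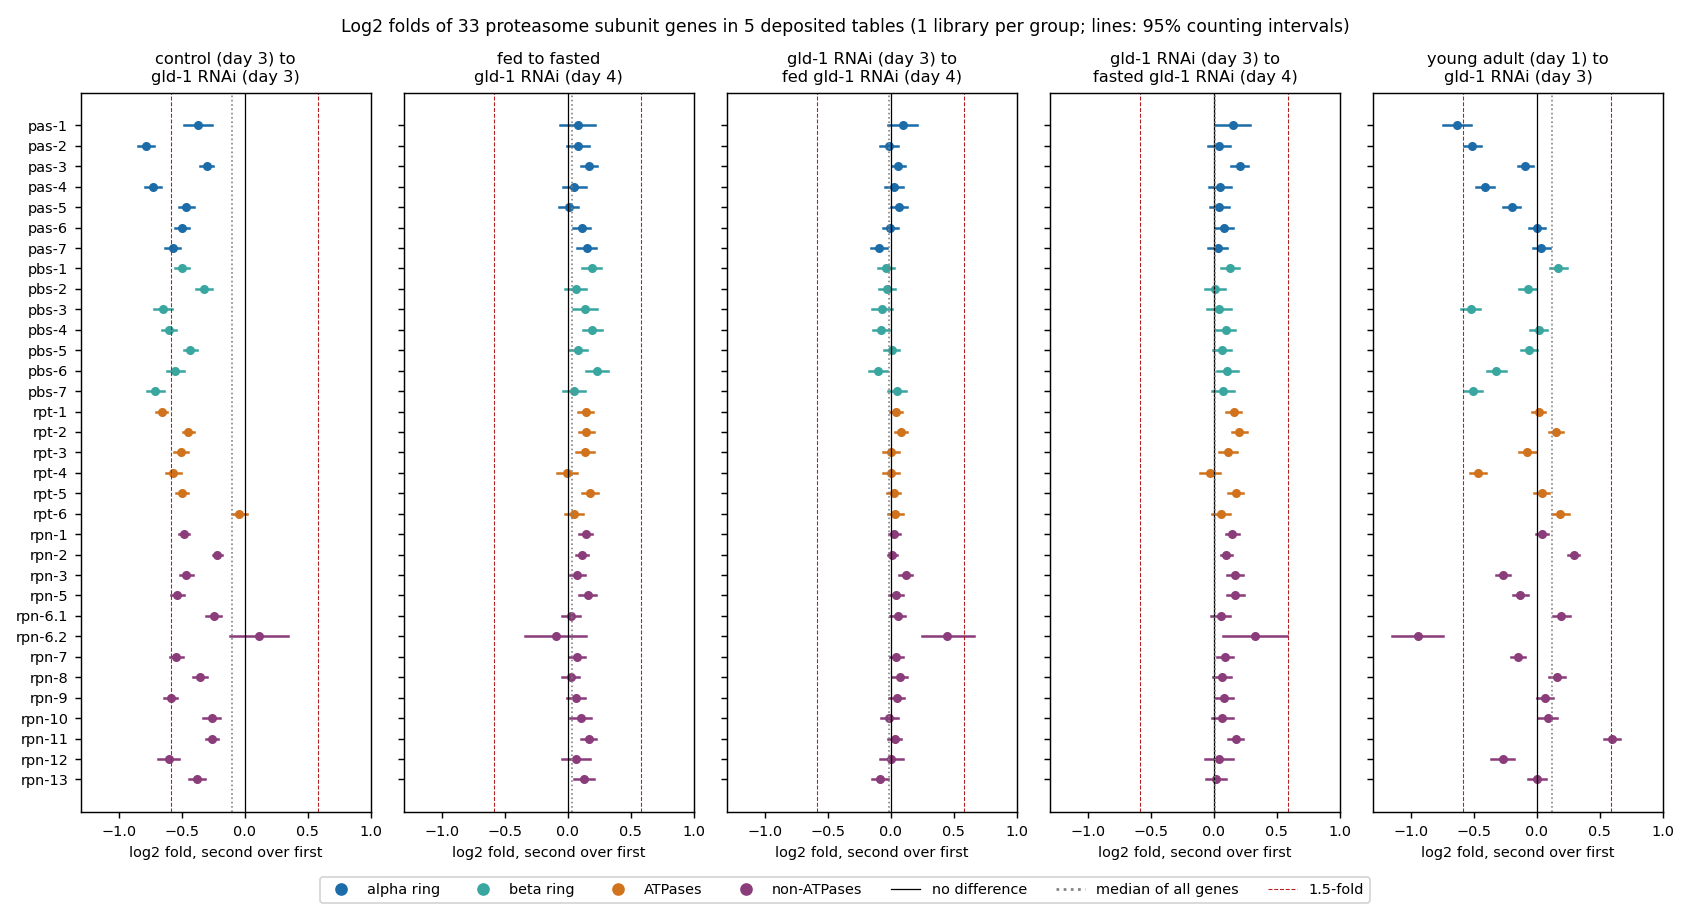
Log2 fold of each subunit gene, second library over first, in the 5 deposited tables, with 95% counting intervals and colours for the 4 kinds of subunit. In control against gld-1 RNAi 32 of 33 points lie left of 0, while in the 3 tables among gld-1 RNAi libraries no point passes 1.5-fold.

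A difference of at least 1.5-fold downwards was seen in 8 of the 33 genes, or 24.2%, beside 19.3% of all genes and 17.6% of the genes at that higher minimum. No subunit gene was at least 1.5-fold higher, where 16.8% of all genes were and 9.15% at the higher minimum. The share of subunit genes past 1.5-fold downwards was thus near the background, and the count depended on the scaling. It was 8 with the authors' scaling, 2 with equal totals or equal upper quartiles and 13 with 1 scale over the 5 libraries. The counting interval lay below 0 for 31 genes and spanned 0 for rpt-6 and rpn-6.2, and such intervals were not counted over all genes.

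The 8 genes were spread over all 4 kinds of subunit. In the alpha ring, pas-2 had 5162 normalised reads in the control and 2996 under gld-1 RNAi, the lowest fold of all (-0.78, interval -0.85 to -0.72). In the same ring, pas-4 had 4972 and 3000 (-0.73, interval -0.79 to -0.66). On the scale of 5 libraries pas-2 stood at 3713 in young adults, 4304 in the control, 2407 under gld-1 RNAi, 2420 in fed and 2514 in fasted animals. Both L4440 libraries were therefore above all 3 gld-1 RNAi libraries for pas-2, and the same held for pas-4, at 3466, 4145, 2410, 2487 and 2537.

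The beta-ring genes gave pbs-7 (4881 and 2985, log2 fold -0.71), pbs-3 (-0.65) and pbs-4 (-0.60). The interval of pbs-7 was -0.78 to -0.64. Its reads may include some of the neighbouring gene K07A12.5 on the same strand, which overlaps 7.97% of its exons. In the regulatory particle the genes were the ATPase rpt-1 (10072 and 6384, log2 fold -0.66, interval -0.70 to -0.61) and the lid subunits rpn-12 (-0.60) and rpn-9 (-0.59). An overlapping non-coding RNA gene covers 10.6% of the exons of rpn-9.

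The 4 genes with folds nearest to or above 0 were all in the regulatory particle. The ATPase gene rpt-6 had 4528 normalised reads in the control and 4399 under gld-1 RNAi (-0.04, interval -0.10 to 0.02), and its sign turned positive with equal totals. Across the 5 libraries rpt-6 stood at 3360, 3776, 3535, 3678 and 3739, the narrowest course among the 6 ATPases. The scaffold subunit rpn-2, to which other base subunits attach, had 12210 and 10514 (-0.22, interval -0.25 to -0.18), and rpn-6.1 had 4851 and 4093 (-0.25, interval -0.31 to -0.19). The only fold above 0 was that of rpn-6.2, with 307 and 332 normalised reads (0.11, interval -0.11 to 0.34). The ubiquitin receptor rpn-10, which in C. elegans also acts in germline sex determination, stood at -0.26.

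By particle, the core median was -0.52 and the regulatory particle median -0.46. The difference was -0.06. All 14 core genes lay below 0, between -0.78 (pas-2) and -0.30 (pas-3). By kind, the medians were -0.50 for alpha-ring genes, -0.55 for beta-ring genes, -0.50 for ATPases and -0.38 for non-ATPases. Exon lengths differed between the particles, at 801 to 1059 bases in the core and 855 to 3171 in the regulatory particle, and Spearman's rho of exon length with the fold was 0.42 over the 33 genes.

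**Figure D4:**
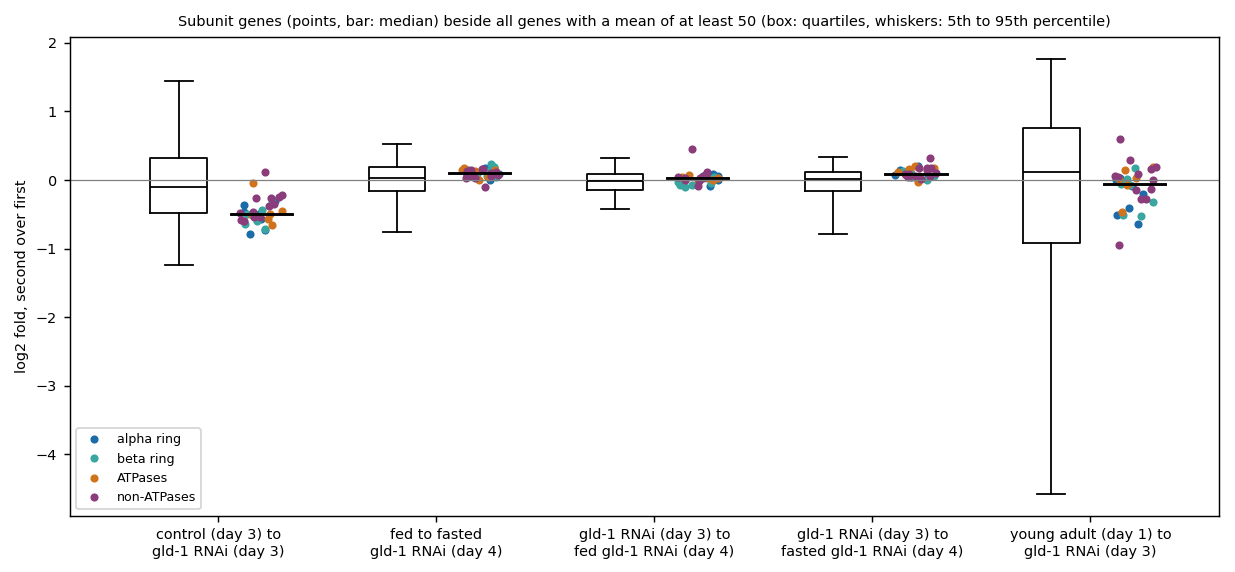
Log2 folds (vertical axis) of all genes with a mean of at least 50 normalised reads (box for quartiles, whiskers to the 5th and 95th percentiles) beside those of the 33 subunit genes (points, with a bar at the median) in the 5 tables. In control against gld-1 RNAi the subunit genes sit around -0.49 while the median of all genes is -0.10, and in the tables of fed and fasted animals both lie near 0.

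Tissue markers also differed between these libraries. All 18 oocyte markers were at least 1.5-fold lower under gld-1 RNAi, with a median log2 fold of -1.66, and their summed level was 498214 in the control and 166474 under gld-1 RNAi. In the other libraries it was 172854 (young adult), 133750 (fed) and 207271 (fasted), and none of these markers was at 0 in any library. Of the 14 intestine markers, 10 were at least 1.5-fold lower, with a median of -0.74 and sums of 520957 and 333606. Of the 14 markers of germline stem and meiotic cells, 7 were higher and 2 lower, with a median of 0.60. Body wall muscle had 3 of 12 markers higher (median 0.41), neurons 8 of 11 (median 0.94), hypodermis 4 of 6 measured lower (median -0.95), and pharynx 1 of 5 lower and 1 higher (median -0.18). The part of these tissues in the lower subunit levels was not tested, and in whole animals fewer cells of a type and less RNA per cell cannot be told apart.

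The comparison of fed with fasted gld-1 RNAi animals on day 4 sets 48 h on L4440 bacteria against 48 h without food. The gld-1 level differed too, at 2633 normalised reads in fed and 1394 in fasted animals (log2 fold -0.92, interval -1.02 to -0.82). Food and gld-1 level therefore cannot be told apart in it. No subunit gene differed by 1.5-fold, where 7.37% of the 8991 genes measured were lower and 4.08% higher. At the higher minimum these shares were 2.29% and 1.94%, so a count of 0 among 33 genes is near that background. The median log2 fold of the subunit genes was 0.10, against 0.04 for all genes and 0.08 for those at the higher minimum. The sign was shared by 31 of the 33 genes, which lay above 0, as did 56% of all genes and 68.6% at the higher minimum. Between 29 and 32 lay above 0 under the other scalings.

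The highest fold belonged to the beta-ring gene pbs-6, with 1971 normalised reads in fed and 2321 in fasted animals (0.24, interval 0.15 to 0.32). Its levels on 1 scale were 3273 in young adults, 3680 in the control, 2421 under gld-1 RNAi, 2291 in fed and 2650 in fasted animals. Fasted animals thus exceeded fed animals for pbs-6 but stayed below both L4440 libraries. Next came pbs-4 (0.20), pbs-1 (0.19) and rpt-5 (0.18). At the other end were rpn-6.2 (-0.10, interval -0.34 to 0.14), rpt-4 (-0.01), pas-5 (0.01) and rpn-8 (0.02), all with intervals that span 0.

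The interval lay above 0 for 20 of the 33 genes and spanned 0 for 13. Such intervals were not counted over all genes, so these counts have no background beside them. Core and regulatory particle had the same median to 2 decimals, 0.10. The folds of the 33 genes in this table had a Spearman's rho of -0.14 with those of control against gld-1 RNAi, or -0.05 without rpn-6.2, given as a description over genes. Beside this, 14 of the 18 oocyte markers were at least 1.5-fold higher in fasted animals (median 0.78). Of the 12 intestine markers measured, 8 were lower and 2 higher (median -1.06). The part of these tissues in the subunit values was not tested.

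The gld-1 RNAi library of day 3 was also set against the fed and the fasted libraries of day 4, in tables that share the day 3 library. In fed animals the median log2 fold of the subunit genes was 0.02 with the authors' scaling, -0.06 with equal totals and -0.02 with equal totals outside ribosomal RNA, so its direction depended on the scaling. The interval spanned 0 for 24 genes, a count not made over all genes. No gene passed 1.5-fold, beside 2.2% of all genes lower and 1.48% higher, or 0.345% and 0.247% at the higher minimum. The one member apart was rpn-6.2, with 337 normalised reads on day 3 and 461 in fed animals (0.45, interval 0.25 to 0.66). The next highest was rpn-3, a lid subunit, at 0.12, followed by pas-1 (0.09), rpt-2 (0.08) and rpn-8 (0.07). The lowest were pbs-6 (-0.10), pas-7 (-0.09), rpn-13, a ubiquitin receptor (-0.08), and pbs-4 (-0.08).

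In fasted animals the median was 0.08 and 32 of the 33 genes lay above 0, where 52.5% of all genes did and 72.9% of those at the higher minimum. No gene passed 1.5-fold, beside 7.41% of all genes lower and 1.74% higher, or 2.16% and 0.274% at the higher minimum. The highest were rpn-6.2 (0.33, interval 0.08 to 0.58), pas-3 (0.21), rpt-2 (0.20) and rpn-11 (0.17). The lowest were rpt-4 (-0.03), pbs-2 (0.01), rpn-13 (0.02) and pas-7 (0.03). Subunit levels in the day 4 gld-1 RNAi libraries were thus within 1.5-fold of those on day 3, with or without food.

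The last table compares young adults on L4440 with gld-1 RNAi animals 2 days older, so that age and gld-1 RNAi cannot be told apart in it. With the authors' scaling 18 of the 33 subunit genes lay below 0, beside 45.5% of all genes. How many lay below 0 depended on the scaling, at 32 with equal totals, 26 with 1 scale over the 5 libraries, 24 with equal totals outside ribosomal RNA and 13 with equal upper quartiles. The median log2 fold was -0.06 with the authors' scaling, -0.49 with equal totals and 0.05 with equal upper quartiles, and the median of all genes moved from 0.12 to -0.33 with equal totals. Relative to the median of all genes, 26 of the 33 subunit genes were lower, a count that rescaling could again hardly change. At least 1.5-fold lower were 2 genes, beside 30.7% of all genes and 15.6% at the higher minimum, and 1 gene was higher, beside 31.6% and 39.6%. The lower count was 11 with equal totals and 5 with 1 scale over the 5 libraries.

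The lower genes were rpn-6.2, with 582 and 301 normalised reads (-0.95, interval -1.15 to -0.75), and pas-1, with 1642 and 1057 (-0.63, interval -0.75 to -0.52). The higher gene was rpn-11, with 3620 and 5468 (0.59, interval 0.53 to 0.66). The fold of rpn-11 lay just past the 1.5-fold line of 0.58, and it no longer passed with equal totals, with equal totals outside ribosomal RNA or with 1 scale over the 5 libraries. Several core genes followed on the lower side, namely pbs-3 (-0.53), pas-2 (-0.51) and pbs-7 (-0.51). On the higher side were rpn-2 (0.29), rpn-6.1 (0.19) and rpt-6 (0.19), all of the regulatory particle.

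Core and regulatory particle stood further apart here than in the other 4 tables. The core median was -0.15 with 11 of 14 genes below 0, and the regulatory particle median was 0.04 with 7 of 19 below 0. The difference of -0.18 compares with differences between -0.06 and -0.01 in the other tables. Folds of all genes were also more widely spread here, with an interquartile range of 1.68, against 0.23 to 0.81 in the other tables. The larger difference is therefore not particular to the subunit genes. All 12 body wall muscle markers were at least 1.5-fold lower in this table (median -2.74), with summed levels of 200090 in young adults and 28316 under gld-1 RNAi, and none was at 0. Of the 14 germline stem and meiotic cell markers, 10 were higher (median 1.29). The ribosomal RNA share also set the young adult library apart, and the part of these differences in the subunit values was not tested.

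No deposited table compares young adults with the day 3 control, so these libraries were set side by side on the scale of 5 libraries. In the control 31 of the 33 subunit genes were above young adults, where 54.9% of all genes were, and the median log2 fold was 0.32 against 0.16 for all genes. With equal totals the direction turned, with a median of -0.18 and 7 genes above young adults, while the other 3 scalings gave medians from 0.25 to 0.49 and 29 to 31 genes above. At least 1.5-fold higher were rpn-11 (0.80), rpt-1 (0.61), pbs-1 (0.60) and rpn-9 (0.59), or 4 of 33 genes beside 33.6% of all genes. That count was 0 with equal totals, 1 with equal upper quartiles or equal totals outside ribosomal RNA, and 12 with the median of ratios of these libraries alone. The genes below young adults were rpn-6.2 (-1.12), at least 1.5-fold lower beside 33% of all genes, and pas-1 (-0.32). The summed oocyte marker level was also higher in the control, at 498214 against 172854, and its part in the subunit values was not tested.

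On the scale of 5 libraries, rpn-6.2 and pas-1 were thus the only subunit genes lower in the control than in young adults. With equal totals 26 of the 33 were lower. On 1 scale rpn-6.2 stood at 557 in young adults, 256 in the control, 267 under gld-1 RNAi, 370 in fed and 340 in fasted animals. The summed level of 16 sperm markers, mostly major sperm protein genes, was 10546 in young adults, 45.4 in the control, 445 under gld-1 RNAi, 536 in fed and 318 in fasted animals. Young adults were highest and the control lowest for both, but the counting interval of rpn-6.2 from control to gld-1 RNAi spanned 0. In each table without young adults, only 1 of the 16 sperm markers passed the minimum mean. None of the sperm markers was at 0 in young adults or fed animals, while 11 were at 0 in the control, 1 under gld-1 RNAi and 7 in fasted animals, and their part in the values of rpn-6.2 was not tested. For pas-1 the levels were 1573, 1257, 936, 1015 and 1055, with young adults highest and the 3 gld-1 RNAi libraries lowest.

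Genes that act with the proteasome were described from a list of 30 named genes and all 21 ubiquitin-conjugating enzyme genes (ubc-). Of these 51 genes, 50 were matched by name and 45 were measured. Between control and gld-1 RNAi their median log2 fold was -0.32, with 10 of the 45 genes lower at 1.5-fold, beside 19.3% of all genes, and 4 higher, beside 16.8%. The share of lower genes was near the background, and the genes named next are those past 1.5-fold. Their range, from -1.10 to 1.62, was wider than that of the subunits, from -0.78 to 0.11.

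The lower genes included the polyubiquitin gene ubq-1, with 44173 and 26643 normalised reads (-0.73), and the segregase cdc-48.1, which pulls ubiquitinated proteins from complexes and membranes, with 26803 and 14100 (-0.93). Its cofactors npl-4.1 (-0.62) and npl-4.2 (-0.60), near-identical genes whose shared reads may be miscounted, were lower too. So were sel-11 (-0.66) and sel-1 (-0.62), which tag misfolded proteins of the endoplasmic reticulum, with ubc-7 (-0.95) of the same pathway. The other lower genes were ubc-12 (-1.10), which conjugates the ubiquitin-like protein NED-8, ubc-9 (-0.82), which conjugates SUMO, and ubc-18 (-0.84). The higher genes were ubc-23 (1.62), the ubiquitin ligase gene hecd-1 (0.93), ubc-26 (0.61) and ubq-2 (0.66), which encodes ubiquitin fused to a ribosomal protein.

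Other genes of the list that act on or beside the particle and are named next lay between -0.47 and 0.13. Further genes of the list lay outside this range, among them ufd-2 (-0.53), chn-1 (-0.49), png-1 (0.20) and eel-1 (0.36). The lid subunit dss-1 stood at -0.01, the shuttle receptor rad-23 at -0.44, the proteasome-bound deubiquitinase usp-14 at -0.47 and the ubiquitin-activating enzyme uba-1 at -0.43. The deubiquitinase ubh-4 stood at -0.08, the shuttle receptor ubql-1 at 0.05, the assembly chaperone psmd-9 at -0.21 and the activator psme-3 at 0.13.

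**Figure D5:**
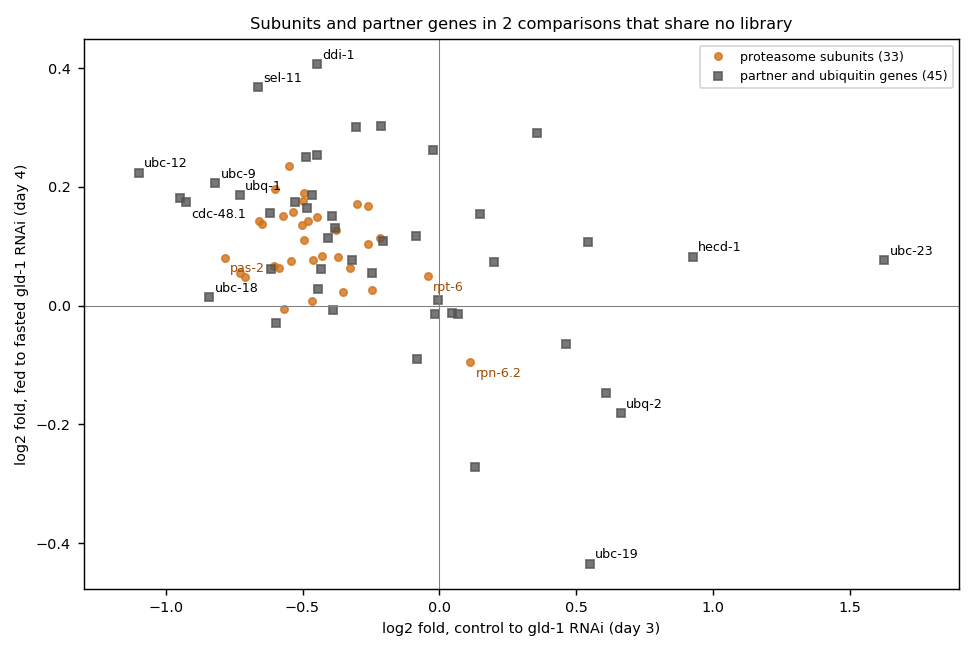
Log2 fold of control against gld-1 RNAi (horizontal axis) and of fed against fasted gld-1 RNAi (vertical axis) for 33 subunit genes and 45 measured partner and ubiquitin genes, each 1 point. Subunit genes other than rpn-6.2 (0.11) lie left of 0, while partner genes range from -1.10 to 1.62 on the horizontal axis.

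In fed against fasted animals no partner gene passed 1.5-fold, and the median was 0.11. The furthest were ddi-1 (0.41, interval 0.31 to 0.51) and ubc-19 (-0.43, interval -0.98 to 0.07). The interval of ubc-19, with only 83.6 and 61.6 normalised reads, spanned 0. The gene ddi-1 encodes a protease known in C. elegans to activate the transcription factor that raises proteasome genes. No partner gene passed 1.5-fold in gld-1 RNAi against fed (median -0.01) or fasted animals (median 0.06). From young adults to gld-1 RNAi none was lower, beside 30.7% of all genes, and 10 of 45 were higher, beside 31.6% (median 0.21). The share of higher genes was thus below that of all genes. These were ubc-15 (1.22), eel-1 (1.19), hecd-1 (1.15), ubc-19 (1.09), png-1 (1.04), ubc-23 (0.86), ubc-25 (0.80), skn-1 (0.76), ubc-1 (0.66) and ubc-26 (0.66). Of these, skn-1 encodes that transcription factor and png-1 a glycanase that acts on it.

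The subunit genes lie on 5 chromosomes, with 10 on I, 7 on II, 8 on III, 3 on IV and 5 on V. None lies on X, which holds 12.9% of the protein-coding genes measured. The exons of rpn-7, pbs-4 and rpt-4 overlap those of nemt-1, mrrf-1 and rpoa-49 over 20.7%, 9.11% and 7.05% of their length. No source used here gives the strand setting of the count, and reads of such pairs cannot be told apart without it.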

How the data were processed

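Reads had been aligned with TopHat, counted per gene with HTSeq and compared with DESeq, per the submitters' processing notes; versions, genome build and strand setting are not given in the sources used here. The deposited values per gene are a signal, read counts divided by size factors, per the file headers, with the authors' log2 fold change and p-value. All values above 0 came out as whole reads within 0.1 read (100%), and no gene differed between tables holding the same library. With 1 library per group the recovered reads allowed no count test, and neither p-values nor SDs were computed.

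Folds used a pseudocount of 1, a minimum mean of 50 and a 1.5-fold call. Levels across libraries used 1 median-of-ratios scale, and exon lengths came from Ensembl release 115. Python 3.11.15, pandas 2.3.3 and scipy 1.17.1 were used, and scripts were tested on simulated data. The subunit genes, partner list and marker lists were chosen with earlier results of these data known. Per table, the text names the 4 highest and 4 lowest subunit genes, any over 0.58 from their median, and partners at least 1.5-fold apart. Other scalings, thresholds and lengths were tried as alternatives.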

Additional observations from a re-analysis of the deposited data

How the results depend on the processing

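Of the alternative values, 220 stayed close to those reported, 45 moved and 1 reversed. Many of the 220 could hardly have moved, so this tally does not measure robustness. Rescaling nearly cancels in the core minus regulatory median, and a count of 0 genes past 1.5-fold stays 0 at 2-fold. A median log2 fold was called reversed only if its sign changed and the reported value exceeded the median counting half-width in size. Sign changes of smaller medians were called moved or close, as in gld-1 RNAi against fed animals and young adult against gld-1 RNAi. The one that reversed was the median log2 fold of young adult to control, -0.18 with equal totals, and it was 0.25 with equal totals outside ribosomal RNA and 0.49 with the median of ratios of these libraries alone. The number at least 1.5-fold higher was then 0, 1 and 12, and 1 with equal upper quartiles, and the number lower was 2 with equal totals. The median log2 fold of the subunit genes in control against gld-1 RNAi was -0.36 with equal totals, -0.36 with equal upper quartiles and -0.41 with equal totals outside ribosomal RNA. The number at least 1.5-fold lower was then 2, 2 and 3, and it was 13 with 1 scale over 5 libraries, 0 at 2-fold and 4 where the whole counting interval had to pass 1.5-fold. Core minus regulatory median was -0.15 when only rpn- genes stood for the regulatory particle. The median was -0.063 in gld-1 RNAi against fed animals with equal totals, and 0.18 against fasted animals with equal upper quartiles. In young adult against gld-1 RNAi it was -0.49 with equal totals, 0.045 with equal upper quartiles and -0.18 with 1 scale over 5 libraries, and the lower count was then 11, 1 and 5. That count was 1 without rpn-6.2, 0 at 2-fold and 1 by the whole interval, and the higher count was 0 with equal totals, equal totals outside ribosomal RNA, 1 scale over 5 libraries, 2-fold and the whole interval. The core to regulatory ratio of median levels per kb was, by coding length, 1.63 (young adult), 1.36 (gld-1 RNAi), 1.29 (fed) and 1.32 (fasted). By means it was 1.496, 1.38 (control), 1.29, 1.25 and 1.26. Without rpn-6.2 it was 1.48 (control), 1.24 (gld-1 RNAi) and 1.18 (fasted). The scalings of young adult to control, the scale over 5 libraries, the omission of rpn-6.2 and the minimum mean of 1000 were chosen after seeing the data. The cause of these shifts was not tested.

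Every comparison rests on 1 library per group, and no replicate was left out. The median counting half-width of a subunit's log2 fold was 0.058 to 0.073. No paired analysis was possible because each group has 1 library and the labels carry no replicate numbers.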

Other observations

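Other large complexes were set beside the subunit genes after the values of the latter had been seen. Between control and gld-1 RNAi the 8 chaperonin genes (cct-), whose products fold actin and tubulin, had a median log2 fold of 0.02. None passed 1.5-fold, beside 19.3% of all genes lower and 16.8% higher. The 6 genes of the COP9 signalosome (csn-) had a median of -0.23 and the 11 genes of the translation factor eIF3 (eif-3) a median of -0.14; these complexes share domains with the proteasome lid. The 76 measured ribosomal protein genes stood on the other side, with a median of 0.81. At least 1.5-fold higher were 72 of them, beside 16.8% of all genes. The cathepsin and aspartyl protease genes, which act in lysosomes and the gut, had a median of -0.74. Of these, 11 of 21 were lower, beside 19.3% of all genes. The 11 measured autophagy genes (atg-) had a median of -0.33.

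In fed against fasted animals the medians were 0.07 for the chaperonin, 0.04 for COP9, 0.02 for eIF3 and -0.19 for ribosomal protein genes. All 11 autophagy genes lay above 0, where 56% of all genes did and 68.6% of those with a mean of at least 1000. Their median was 0.22, and none passed 1.5-fold. Of 20 cathepsin and aspartyl protease genes measured, 11 were at least 1.5-fold lower, beside 7.37% of all genes, and 3 higher, beside 4.08%.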
